A study of Mus musculus with 7 samples.

Results

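Genes of glutathione and cysteine metabolism and of antioxidant defence were compared between adrenal glands with and without Ezh2 in steroidogenic cells. The members were chosen by symbol: glutathione S-transferases, glutathione peroxidases, peroxiredoxins and 19 named enzymes and regulators, of which 51 were measured among 22180 genes. Each of the 51 was read by 1 probe set with a single annotated symbol. The 7 mice were females aged 2 months with an uncontrolled mixed background, mainly C57BL/6 and SV129, and the RNA of their whole adrenal glands was hybridised to 1-colour Affymetrix arrays. The 4 knockout mice (KO) carried sf1:Cre and 2 floxed Ezh2 alleles. In them Cre is driven by steroidogenic factor 1 regulatory sequences, which are active in adrenal cortical cells, and Ezh2 encodes the enzyme of Polycomb repressive complex 2 that methylates histone H3 at lysine 27. The 3 controls were wild-type littermates (WT), and the labels do not say whether they carried Cre or the floxed alleles. Chromaffin cells, capsule, vessels, immune cells and fat of the gland lie outside the main Cre domain and contribute RNA to each array. A fall in a whole-gland sample can come from fewer cells of a type or from less RNA per cell, which these data cannot tell apart.

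Glutathione is a tripeptide whose supply is limited by cysteine, which cells import or make from methionine by transsulfuration. Glutathione peroxidases and peroxiredoxins remove peroxides, superoxide dismutases and catalase remove superoxide and hydrogen peroxide, and glutathione S-transferases join glutathione to reactive compounds. Steroid-making cells of the adrenal cortex generate reactive oxygen species at their mitochondrial cytochromes P450. In humans, loss of the mitochondrial enzymes NNT or TXNRD2 causes familial glucocorticoid deficiency. NRF2, encoded by Nfe2l2, is the transcription factor that induces many of these genes through the antioxidant response element.

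Of the 51 genes, 7 were lower and 4 higher in KO. Cth, which makes cysteine, had the largest fall at 2.98-fold, and Gstm2 the largest rise at 2.10-fold. Falls were found for Gsta3, Mgst2, Mgst1, Gstk1, Sod2 and Txnrd2, and rises for Srxn1, Gstm1 and Gstt1. Calls were made with limma at a Benjamini-Hochberg adjusted p under 0.05, two-sided and adjusted over all 22180 genes. The 11 calls are 21.6% of the members, against 8.69% of all genes. Lower calls were 13.7% of members against 3.55% of all genes, and higher calls 7.84% against 5.14%. The 22180 genes include weak ones, and the expression results for all genes, here and below, depend on that choice. With genes below the median level left out, 1174 of 11090 genes were higher and 1031 lower. Of the members kept, 6 were then higher and 7 lower. A larger share of all genes was called in this way. The share among the members kept was not worked out, so the excess of the members was not separated from their level. The count of higher members was 2 without WT replicate 1 or 3 or KO replicate 3 or 4, and that of lower members was 4 without WT replicate 3. The median log2 change was -0.02 for the members and 0.0004 for all genes, and the median absolute change was 0.16 and 0.08.

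Values below are the authors' RMA log2 expression values, and a change is the KO mean minus the WT mean in log2 units with its standard error (SE). They compare a gene with itself between arrays and do not rank genes by abundance. Array medians lay between 5.32 and 5.38 over 41345 probe sets. Rises made up 59.1% of all calls (1140 higher, 788 lower), and 43.1% (1005 higher, 1329 lower) after centring of the arrays on their medians over the named genes. The members gave 4 higher and 7 lower either way. Ezh2 itself was at 7.08 on all 3 WT arrays and at 6.86, 7.04, 7.10 and 7.15 on the KO arrays (log2 change -0.04, adjusted p = 0.816 by limma). The sources used here do not give the exons read by its probe set, and the value is therefore no check of the genotype labels. Cortical markers had list means of 11.56 to 11.63 on the WT arrays and 11.65 to 11.74 on the KO arrays.

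Markers of several cell types moved with the groups. Of 10 measured chromaffin markers 9 were higher in KO, with list means of 9.12 to 9.22 in WT and 9.996 to 10.22 in KO. Capsule and stroma markers were higher for 5 of 9 (list means 7.68 to 7.79 in WT, 8.14 to 8.94 in KO). Of 9 endothelial and smooth muscle markers 1 was called, the smooth muscle actin gene Acta2, which rose by 1.41, and at an unadjusted p under 0.05 there were 4 higher and 1 lower. All 4 markers of the X-zone, the transient inner cortical zone of young mice, were lower (list means 9.17 to 9.51 in WT, 6.46 to 7.09 in KO). Adipocyte list means ranged from 8.38 to 9.58 in WT and from 7.17 to 8.81 in KO, and 0 of 9 adipocyte markers was called by limma, with 2 lower at an unadjusted p under 0.05. Of 10 macrophage markers 1 was called, Lyz2, which fell, and at an unadjusted p under 0.05 there were 4 lower and 0 higher. The part of these shifts in the results below was not tested.

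**Figure D1:**
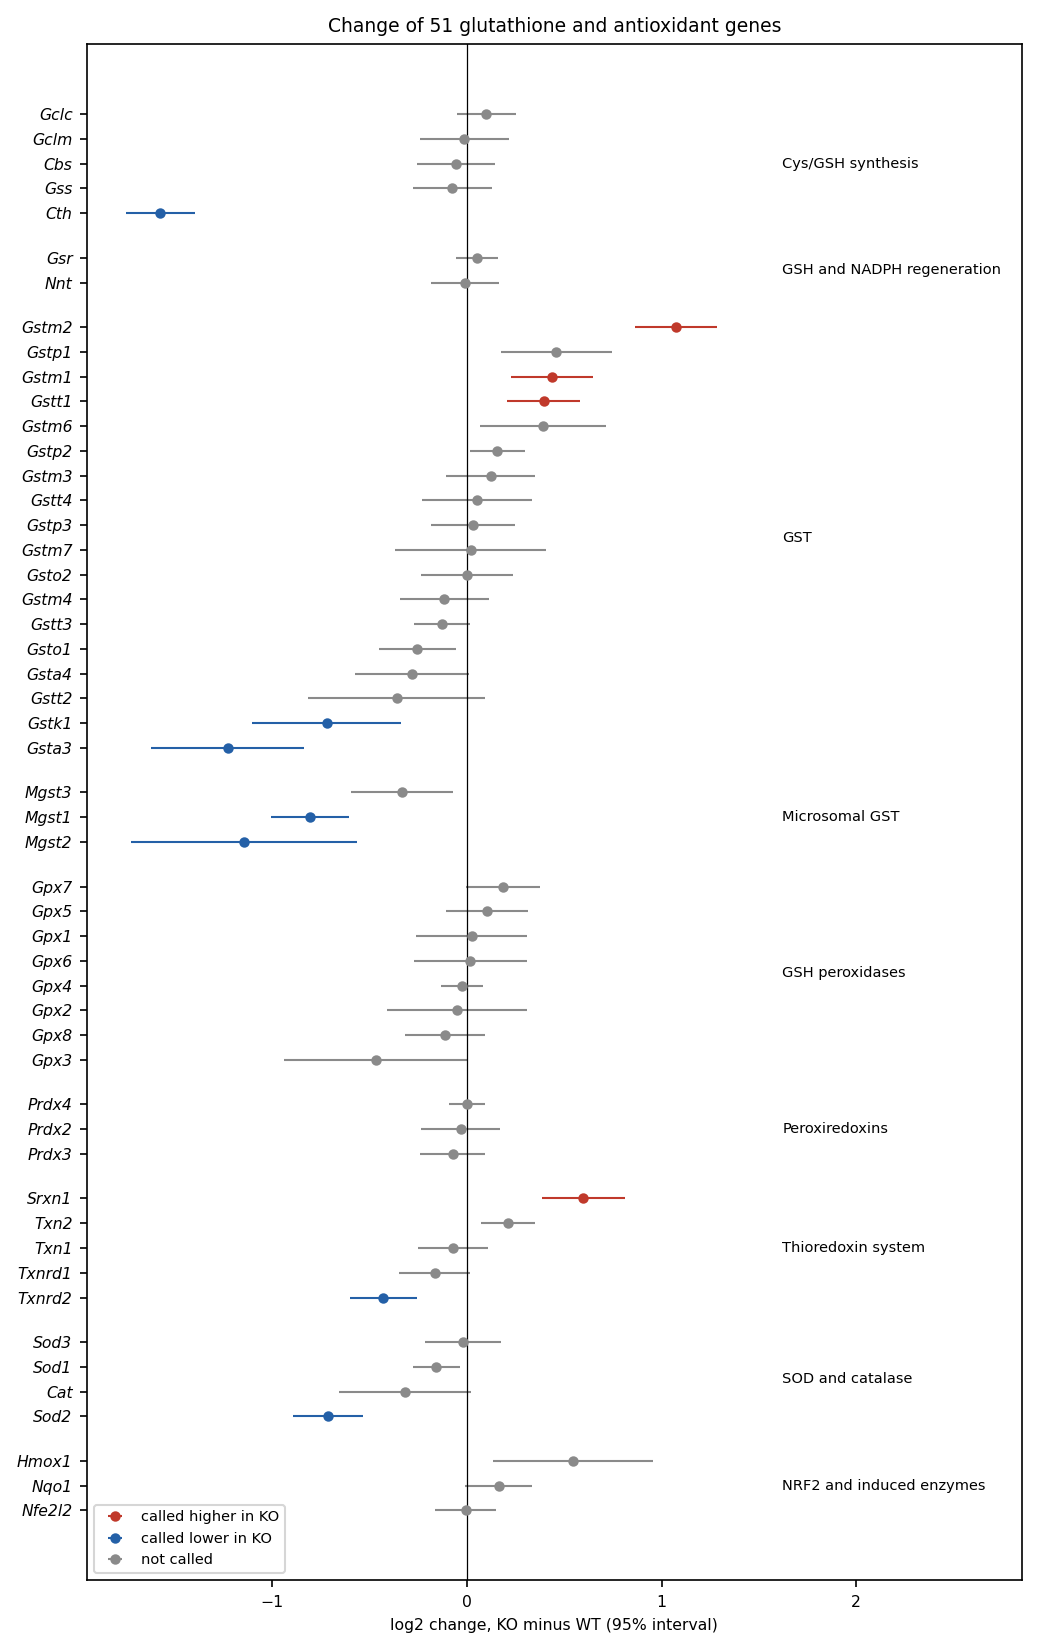
Log2 change (KO minus WT, x axis) of each of the 51 genes, with its 95% interval from limma, grouped by role. Red points were called higher (4), blue points lower (7) and grey points were not called (40). Cth at -1.57 and Gstm2 at 1.07 lie farthest from 0 in each direction.

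The promoters shown here are those of called genes that hold the core of the antioxidant response element, the sequence read by NRF2, to show that the same element is found in the window of a gene that rose and of genes that fell. The core searched was TGACNNNGC on both strands of the 300 bases from 250 before to 50 after each annotated start (RefSeq, GRCm38.p6). Capitals mark the match, which reads as its reverse complement in Srxn1 and Mgst1. Srxn1 rose, and Gsta3 and Mgst1 fell. The windows are chr2:152105274-152105573 for Srxn1, chr1:21240335-21240634 for Gsta3 and chr6:138140277-138140576 for 1 of the annotated starts of Mgst1, each on the plus strand.
Srxn1: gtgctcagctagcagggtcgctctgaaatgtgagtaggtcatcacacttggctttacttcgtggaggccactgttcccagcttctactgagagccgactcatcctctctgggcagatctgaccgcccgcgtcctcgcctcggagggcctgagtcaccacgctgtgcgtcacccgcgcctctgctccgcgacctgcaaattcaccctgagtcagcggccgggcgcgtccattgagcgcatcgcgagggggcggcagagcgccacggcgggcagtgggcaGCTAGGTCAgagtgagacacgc
Gsta3: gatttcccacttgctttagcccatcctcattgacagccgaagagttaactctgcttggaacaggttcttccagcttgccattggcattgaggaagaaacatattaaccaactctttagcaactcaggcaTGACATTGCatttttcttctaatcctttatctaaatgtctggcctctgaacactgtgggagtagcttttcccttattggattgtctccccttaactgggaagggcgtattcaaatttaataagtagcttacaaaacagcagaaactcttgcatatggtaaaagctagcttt
Mgst1: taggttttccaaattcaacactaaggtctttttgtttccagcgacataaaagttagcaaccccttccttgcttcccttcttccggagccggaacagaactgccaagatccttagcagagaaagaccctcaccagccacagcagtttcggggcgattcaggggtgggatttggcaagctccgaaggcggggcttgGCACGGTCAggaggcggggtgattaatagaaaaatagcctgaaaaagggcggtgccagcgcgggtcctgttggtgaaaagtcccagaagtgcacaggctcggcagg
The match began 121 bases before the start of Gsta3 and 56 bases before that of Mgst1, and lay after the start in Srxn1. Promoters were listed for 43 of the 51 members, among them 10 of the 11 called ones. Cth had no listed promoter and was not searched. Of the 43, 8 (18.6%) held the core, as did 14.0% of 27025 genes. The other 5 were Gclm, Gstm7, Nfe2l2, Sod1 and Txnrd1, none of which was called. The AP-1 site TGACTCA, searched on both strands, was found in 4 of the 43 members, Srxn1, Mgst2, Gstp1 and Gstp2, and in 5.95% of all genes. Of these 4 only Srxn1 also held the core as searched, and there the sites did not overlap. Forms of the element other than TGACNNNGC were not searched. The steroidogenic factor 1 site AAGGTCA was found in Gstk1 and Gpx2 and in 5.38% of all genes. A match describes these windows and is not evidence of binding.

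Of the members that make cysteine and glutathione, Cth was called. It encodes cystathionine gamma-lyase, which releases cysteine from cystathionine in the last step of transsulfuration and can also make hydrogen sulfide. It was at 8.28, 8.44 and 8.54 on the WT arrays and at 6.82, 6.82, 6.78 and 6.98 on the KO arrays. The groups were more than 1 log2 unit apart, and each group spread over less than 0.3. The log2 change was -1.57 (SE 0.08, 95% interval -1.75 to -1.39, adjusted p = 0.000258), and it was called under each of the 17 alternatives tried. Cbs, whose product makes cystathionine in the step before, gave WT values of 5.55, 5.39 and 5.47 and KO values of 5.51, 5.47, 5.20 and 5.47. These groups overlapped, with a log2 change of -0.06 (95% interval -0.26 to 0.15, adjusted p = 0.753 by limma).

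Glutathione is built by glutamate-cysteine ligase, with the catalytic subunit Gclc and the modifier subunit Gclm, and by glutathione synthetase, Gss. Gclc was at 8.01, 8.15 and 8.06 in WT and at 8.31, 8.13, 8.13 and 8.12 in KO, and KO replicate 1 alone lay above all WT arrays. Its log2 change was 0.10 (95% interval -0.05 to 0.25). Gclm was at 7.96, 8.19 and 8.13 in WT and at 8.23, 8.19, 7.997 and 7.90 in KO, so the groups overlapped (log2 change -0.01, 95% interval -0.24 to 0.22). For Gss the log2 change was -0.07 and for Gsr, the reductase that regenerates glutathione with NADPH, it was 0.05 (95% interval -0.05 to 0.16). None of these 4 genes passed the test, with adjusted p values of 0.412 to 0.962 by limma.

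Nnt, the transhydrogenase that supplies NADPH in mitochondria, is deleted in part in the C57BL/6J substrain, and the labels do not name the substrain of these mice. Its values were 9.79, 9.60 and 9.90 in WT and 9.69, 9.79, 9.74 and 9.79 in KO. The 7 arrays spread over 0.30 log2 units with no low array, and the groups overlapped. The log2 change was -0.01 (95% interval -0.19 to 0.16, adjusted p = 0.952 by limma). The sources used here do not say which exons the probe set reads.

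Glutathione S-transferases were called in both directions. Of 18 soluble and mitochondrial members, 3 rose (Gstm2, Gstm1 and Gstt1), 2 fell (Gsta3 and Gstk1) and 13 did not pass the test. Over all genes 5.14% rose and 3.55% fell. Of the 3 microsomal members, 2 fell (Mgst1 and Mgst2).

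Gstm2, a transferase of the mu class whose human counterpart conjugates aminochrome, an oxidized catecholamine, was at 7.88, 7.90 and 7.87 in WT and at 9.07, 8.85, 9.12 and 8.78 in KO. The WT arrays nearly coincided and every KO array lay at least 0.8 above them. The log2 change was 1.07 (SE 0.09, adjusted p = 0.00158), called under each of the 17 alternatives. Gstm1, its neighbour in the annotation, was at 7.81, 7.74 and 7.62 in WT and at 8.34, 7.999, 8.09 and 8.21 in KO, with no overlap. It rose by 0.44 (SE 0.09, adjusted p = 0.0273). Its call was lost without WT replicate 1, 2 or 3 or KO replicate 3 or 4, at adjusted p values of 0.0542 to 0.109 by limma, with log2 changes of 0.38 to 0.48.

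The mu genes lie side by side in the order Gstm5, Gstm7, Gstm6, Gstm3, Gstm2, Gstm1 and Gstm4 in the RefSeq annotation. Gstm6 gave WT values of 4.75, 4.84 and 4.51 and KO values of 5.38, 5.18, 4.91 and 4.91. The groups did not overlap, but the log2 change of 0.39 was not called (adjusted p = 0.145 by limma). Gstm3, Gstm7 and Gstm4 had log2 changes of 0.12, 0.02 and -0.12, with overlapping groups, and the KO arrays of Gstm7 spread from 7.82 to 8.48 around WT values of 8.11 to 8.13. Gstm3 was among the lowest genes by mean (4.18 in WT, 4.30 in KO), so its small change says little. Gstm5 shares its probe set with another gene and was not tested here. The authors' deposited table gives Gstm5 a log2 change of 0.48 (adjusted p = 0.00973). Mu genes are close in sequence, and how far their probe sets read each other's transcripts was not tested. Beside these rises stand the mean log2 changes of the chromaffin markers, 0.96, and of the capsule and stroma markers, 0.83.

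Gstt1, a theta-class enzyme known for conjugating halogenated alkanes, was at 6.79, 6.99 and 6.83 in WT and at 7.32, 7.12, 7.23 and 7.39 in KO. All KO arrays lay above all WT arrays, and the rise was 0.39 (SE 0.08, adjusted p = 0.0260). Its call was lost without WT replicate 1 or 3 or KO replicate 1, 3 or 4, at adjusted p values of 0.0568 to 0.106 by limma. The adjacent theta genes Gstt3, Gstt4 and Gstt2 had log2 changes of -0.13, 0.05 and -0.36, none of them called. Gstt4 was among the lowest genes by mean (4.19 in WT, 4.25 in KO), so its small change says little. Gstt2 varied among WT arrays, at 5.94, 6.49 and 6.86, against 5.97 to 6.15 in KO, and without WT replicate 1 its change was -0.60 (adjusted p = 0.0349 by limma).

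The pi-class gene Gstp1, a major cytosolic transferase, was at 9.00, 8.89 and 8.91 in WT and at 9.52, 9.65, 9.22 and 9.19 in KO. Its groups did not overlap, and its log2 change of 0.46 (95% interval 0.18 to 0.75) missed the threshold with an adjusted p of 0.0635 by limma. It was called when genes below the median level were left out (adjusted p = 0.0358 by limma). Gstp2 and Gstp3 had changes of 0.16 and 0.03, and the platform also holds a probe set annotated to both Gstp1 and Gstp2, so these transcripts may not be separated. Gsto1, an omega-class enzyme that reduces dehydroascorbate, had a change of -0.25 (adjusted p = 0.125 by limma), and Gsto2 one of 0.0002.

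**Figure D2:**
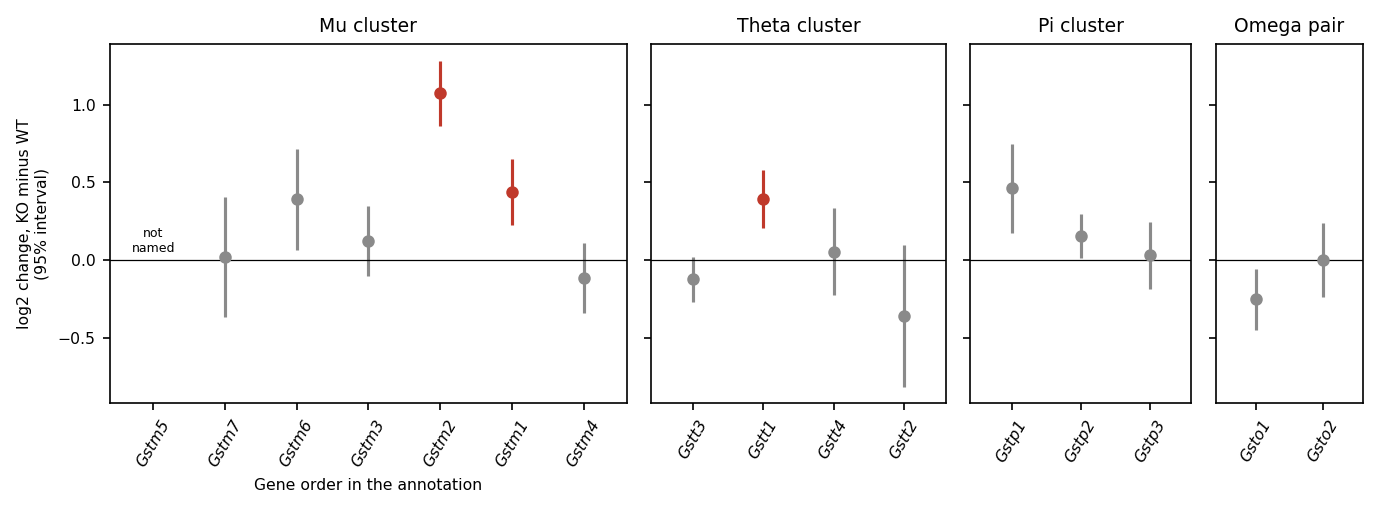
Log2 change (y axis, KO minus WT, bars 95% interval) of glutathione S-transferases that are neighbours in the RefSeq annotation, in annotation order. Red points were called higher and grey points were not called. Gstm2 at 1.07 and Gstm1 at 0.44 stand beside Gstm3 at 0.12 and Gstm4 at -0.12. Gstm3 (WT mean 4.18, KO mean 4.30) and Gstt4 (4.19 and 4.25) were among the lowest genes by mean. Their small changes therefore say little.

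Transferases that fell belong to other classes. Gsta3, an alpha-class enzyme known in mice for conjugating aflatoxin epoxide and in humans for steroid isomerisation, was at 7.09, 7.40 and 6.67 in WT and at 5.65, 5.78, 5.96 and 5.91 in KO. The WT arrays were the more scattered, and the groups were 0.71 apart at their nearest values. The log2 change was -1.23 (SE 0.17, adjusted p = 0.00625), or 2.34-fold, and it was called without any single array. Gsta4, which conjugates the lipid peroxidation product 4-hydroxynonenal, had overlapping groups and a change of -0.28 (adjusted p = 0.232 by limma).

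Gstk1, the kappa-class transferase of mitochondria and peroxisomes, was at 10.62, 10.75 and 10.95 in WT and at 10.48, 9.82, 9.95 and 9.94 in KO. KO replicate 1 lay 0.52 above the next KO array and 0.14 below the lowest WT array. It fell by 0.72 (SE 0.16, adjusted p = 0.0391). The call was lost on leaving out any WT array or KO replicate 2, 3 or 4, at adjusted p values of 0.0709 to 0.153 by limma, with log2 changes of -0.80 to -0.63.

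Mgst1, the abundant microsomal transferase of the endoplasmic reticulum and outer mitochondrial membrane, was at 9.24, 9.34 and 9.04 in WT and at 8.50, 8.47, 8.31 and 8.31 in KO. The groups were 0.54 apart, and the log2 change was -0.80 (SE 0.09, adjusted p = 0.00283), called under each of the 17 alternatives. Mgst2, which can form leukotriene C4, was at 8.27, 7.82 and 8.42 in WT and at 7.47, 6.46, 7.10 and 7.08 in KO. The arrays of both groups were spread, and KO replicate 2 was the lowest. Its fall of 1.14 (SE 0.25, adjusted p = 0.0326) lost its call without any WT array or KO replicate 3 or 4 (adjusted p 0.0542 to 0.135 by limma). Mgst3 had a change of -0.33 without overlap between groups (adjusted p = 0.126 by limma). Beside these falls, mean log2 changes were -2.43 for the X-zone list, -1.01 for the adipocyte list and -0.28 for the macrophage list. They were 0.96 for the chromaffin list and 0.83 for the capsule and stroma list. Of 11 measured cortical markers 1 was called, Scarb1, which was higher. At an unadjusted p under 0.05, 5 cortical markers were higher and 2 lower.

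**Figure D3:**
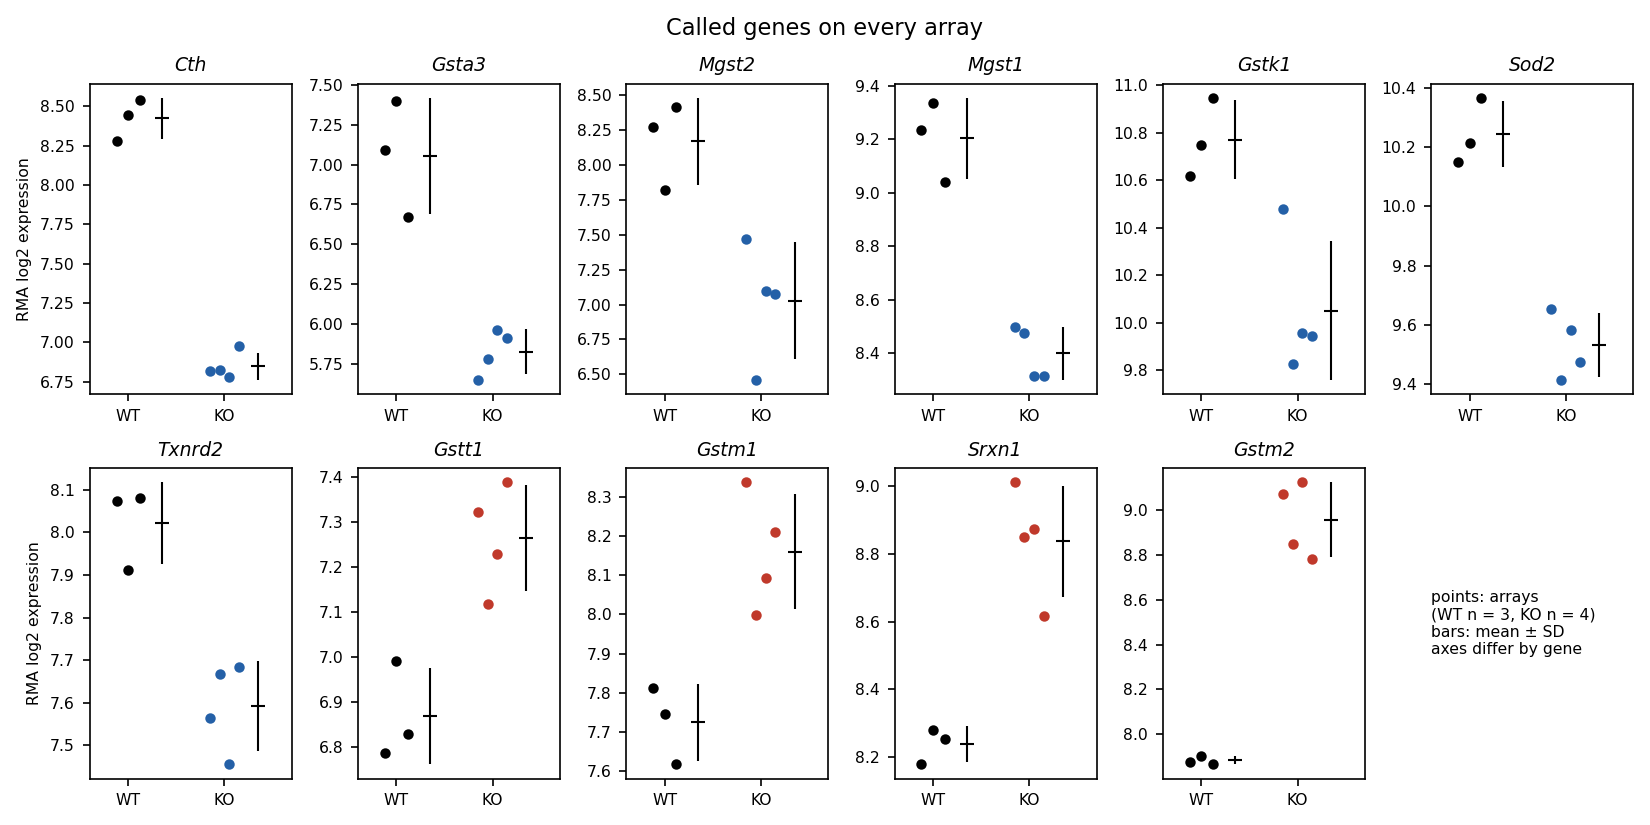
RMA log2 expression (y axis) of the 11 called genes on each array, with WT in black (n = 3), KO in blue where called lower and red where called higher (n = 4), and the mean ± SD beside the points. The y axes differ between genes and do not start at 0. WT and KO arrays do not overlap for any of the 11. The gap between the groups is smallest for Gstt1 (0.13 log2 units) and Gstk1 (0.14).

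Among enzymes that remove superoxide, the mitochondrial one fell. Sod2, the manganese superoxide dismutase of mitochondria, was at 10.15, 10.22 and 10.37 in WT and at 9.65, 9.41, 9.58 and 9.48 in KO. The groups were 0.50 apart, each spread over less than 0.3, and the log2 change was -0.71 (SE 0.08, adjusted p = 0.00289), called under each of the 17 alternatives. Sod1, the cytosolic copper-zinc enzyme, was at 11.32, 11.40 and 11.40 in WT and at 11.30, 11.23, 11.13 and 11.21 in KO. Its groups did not overlap, yet the change was -0.16 (95% interval -0.28 to -0.03) and was not called (adjusted p = 0.123 by limma). Sod3, the extracellular enzyme, was at 8.67, 8.59 and 8.61 in WT and at 8.78, 8.49, 8.68 and 8.46 in KO, with overlap and a change of -0.02 (95% interval -0.22 to 0.18). Catalase (Cat), the peroxisomal enzyme that splits hydrogen peroxide, was at 10.86, 11.32 and 10.93 in WT and at 10.88, 10.75, 10.81 and 10.43 in KO. WT replicate 2 was the highest and KO replicate 4 the lowest, and the change of -0.32 was not called (95% interval -0.66 to 0.02, adjusted p = 0.246 by limma).

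None of the 8 glutathione peroxidases or the 3 measured peroxiredoxins was called by limma, and none had an unadjusted p under 0.05. Gpx1, the main cytosolic peroxidase, was at 9.46, 9.68 and 9.73 in WT and at 9.88, 9.67, 9.67 and 9.38 in KO, with a change of 0.03 (95% interval -0.26 to 0.31). Gpx4, which reduces lipid hydroperoxides in membranes, was at 8.03, 8.08 and 7.97 in WT and at 8.03, 8.03, 7.94 and 8.03 in KO. All 7 arrays of Gpx4 lay within 0.15, and its 95% interval of -0.13 to 0.08 was among the narrowest of the members. Gpx3, the secreted plasma peroxidase, had the widest interval of the family, with values of 7.32, 7.77 and 7.40 in WT and 6.85, 7.38, 7.26 and 6.64 in KO (log2 change -0.46, 95% interval -0.94 to 0.01). Gpx2, Gpx5 and Gpx6 lay between 2.87 and 4.48 on all arrays, each within the lowest 25% of genes by mean. Prdx3, the peroxiredoxin of mitochondria, had a change of -0.07 (95% interval -0.24 to 0.10), Prdx2 of the cytosol one of -0.03 and Prdx4 of the endoplasmic reticulum one of 0.001. In the authors' deposited table, Prdx6 had a log2 change of -0.39 (adjusted p = 0.0163), Prdx5 one of -0.18 (adjusted p = 0.178) and Prdx1 one of -0.01 (adjusted p = 0.972).

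In the thioredoxin system 1 gene rose and 1 fell. Srxn1 encodes sulfiredoxin, which reactivates overoxidized peroxiredoxins, Prdx3 of adrenal mitochondria among them. It was at 8.18, 8.28 and 8.25 in WT and at 9.01, 8.85, 8.87 and 8.61 in KO. All KO arrays lay above the WT arrays by at least 0.3, and the rise was 0.60 (SE 0.09, adjusted p = 0.00906), called under each of the 17 alternatives. Txnrd2, the thioredoxin reductase of mitochondria, was at 8.07, 7.91 and 8.08 in WT and at 7.56, 7.67, 7.46 and 7.68 in KO. It fell by 0.43 (SE 0.07, adjusted p = 0.0140) with no overlap, and its call was lost without WT replicate 1 (adjusted p = 0.0531 by limma) or WT replicate 3 (adjusted p = 0.0668 by limma). Txn2, the mitochondrial thioredoxin that Txnrd2 reduces, was at 8.56, 8.52 and 8.67 in WT and at 8.86, 8.83, 8.69 and 8.80 in KO. These groups did not overlap either, and the change of 0.21 was not called (adjusted p = 0.0767 by limma), but was when genes below the median level were left out (adjusted p = 0.0469 by limma). The cytosolic pair Txn1 and Txnrd1 had changes of -0.07 and -0.17, with overlapping groups.

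Nfe2l2, which encodes NRF2, was at 9.51, 9.58 and 9.48 in WT and at 9.62, 9.36, 9.53 and 9.56 in KO. The groups overlapped, with a change of -0.01 (95% interval -0.17 to 0.15, adjusted p = 0.971 by limma). Nqo1, a quinone reductase, had a change of 0.16 (adjusted p = 0.242 by limma). Hmox1, the heme oxygenase of macrophages and stressed cells, was at 6.60, 6.88 and 6.63 in WT and at 7.72, 7.07, 7.17 and 7.04 in KO. KO replicate 1 stood 0.55 above the next KO array, the groups did not overlap, and the change of 0.55 was not called (95% interval 0.14 to 0.95, adjusted p = 0.113 by limma). The macrophage list means were 7.61 to 7.69 in WT and 7.15 to 7.59 in KO.

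**Figure D4:**
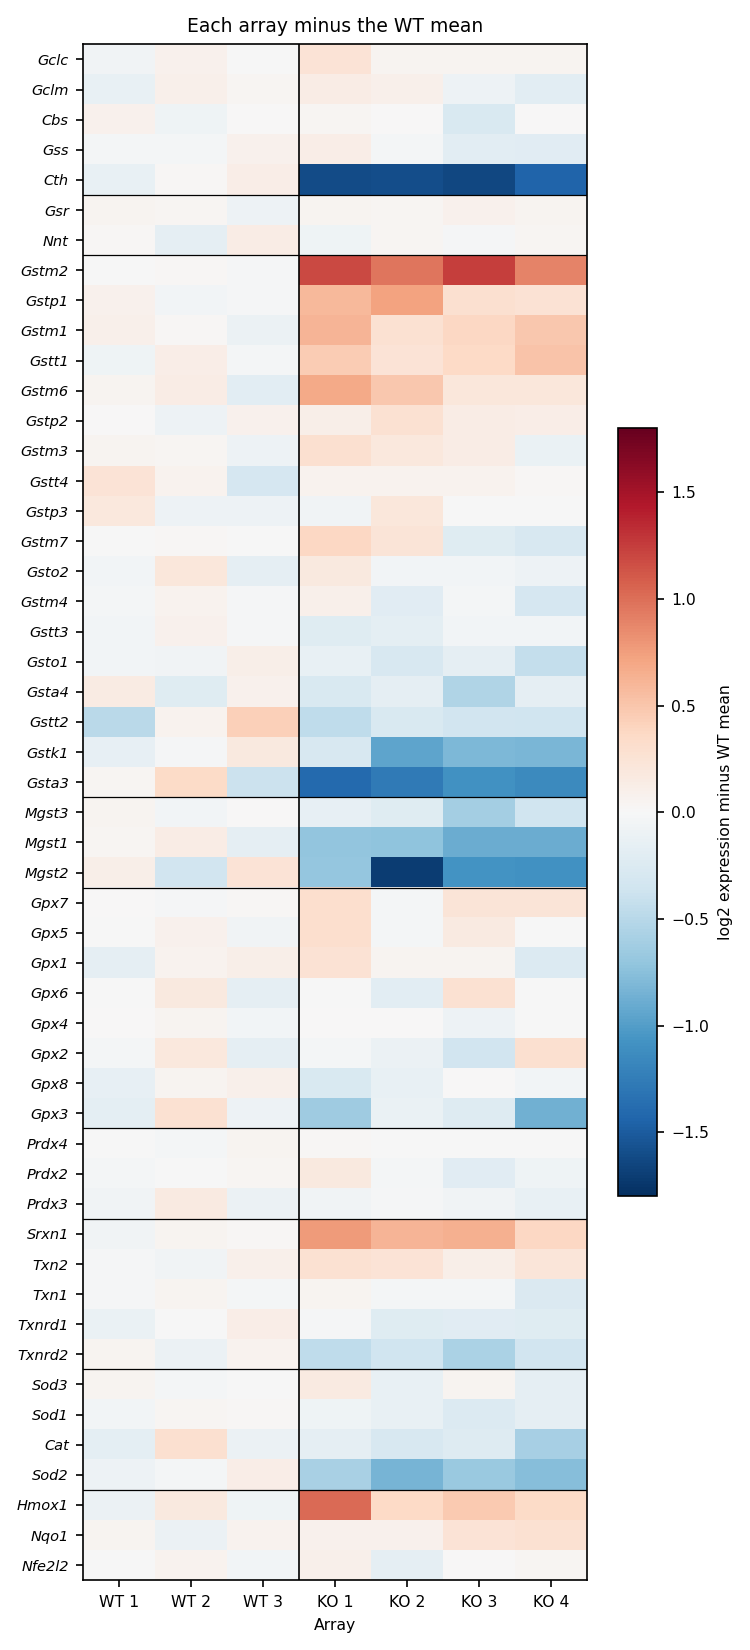
Log2 expression of each of the 51 genes on each array minus the mean of the 3 WT arrays, with arrays as columns and genes as rows, grouped by role between the thin lines and ordered by change within a role. Blue is below and red above the WT mean. Cth, Gsta3, Mgst1, Mgst2 and Sod2 are blue and Gstm2 and Srxn1 red on all 4 KO arrays.

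An unadjusted p under 0.05 was found for 19 of the 51 members (37.3%), against 22.8% of all genes, and 8 of the 19 were not called. Over all 51, the groups did not overlap for 20 members (39.2%), against 20.2% of all genes, and 9 of the 20 were not called. The largest changes of the 40 uncalled members were those of Hmox1 (0.55), Gpx3 (-0.46), Gstp1 (0.46), Gstm6 (0.39) and Gstt2 (-0.36). For 18 members the 95% interval lay within 0.3 log2 units of 0 on both sides. Exactly the same value stood on 2 or more arrays of a group for 15 members, as for 41.4% of all genes, and 0 of the 11 called members was of this kind. Of the 51 members 5 had a mean within the lowest 25% of genes, and 0 of these was called by limma or had an unadjusted p under 0.05.

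The authors' deposited table lists 10 of the 11 called members, without Gstm2, and gives the same direction and an adjusted p under 0.05 for each of the 10. In the authors' deposited table, Gstp1 (log2 change 0.47, adjusted p = 0.0225) and Gstm6 (0.52, adjusted p = 0.0342) also had an adjusted p under 0.05. Both sources rest on the same 7 arrays.

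Further genes of the same pathways were read from 5 lists. Of 103 measured, 15 (14.6%) were called, 12 lower and 3 higher, against 8.69% of all genes. The lists were chosen with earlier results of these data known, so this share is not independent of that choice. None of 24 genes of cysteine and methionine metabolism was called by limma, the cystine transporter Slc7a11 included (log2 change 0.15, adjusted p = 0.456), and at an unadjusted p under 0.05 there were 1 higher and 1 lower. Of 17 genes of glutathione breakdown and transport, Oplah, the 5-oxoprolinase that returns glutamate from broken-down glutathione, fell by 0.59 (adjusted p = 0.00252 by limma). Anpep, an aminopeptidase that can split cysteinylglycine, rose by 0.53 (adjusted p = 0.0468 by limma).

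Of 24 genes of glutaredoxins, glyoxalases and repair, 3 fell and 1 rose, while of all genes 3.55% fell and 5.14% rose. Aifm2, which reduces coenzyme Q and protects membranes from lipid peroxidation, was at 9.76, 9.86 and 9.88 in WT and at 9.24, 8.99, 8.88 and 9.00 in KO, a fall of 0.81 (adjusted p = 0.00285 by limma). Its groups did not overlap. Glrx5, a mitochondrial glutaredoxin of iron-sulfur cluster assembly, fell by 0.54 and Msra, a methionine sulfoxide reductase, by 0.32, while Clic1, a protein with a glutathione transferase fold, rose by 0.27. Of 30 regulators of NRF2 and other NRF2-linked enzymes, 5 fell and 0 rose by limma. At an unadjusted p under 0.05, 7 were lower and 1 higher, against 22.8% of all genes in either direction. Cbr1, a carbonyl reductase, fell by 1.01 (adjusted p = 0.00342 by limma), Nqo2 by 0.47, Taldo1 of the pentose phosphate pathway by 0.40, the NADPH-forming Idh1 by 0.31 and Nfe2l1, a relative of Nfe2l2, by 0.17. Keap1, the adaptor that targets NRF2 for degradation, had a change of 0.01 (adjusted p = 0.898 by limma).

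Selenocysteine is the catalytic residue of Gpx1, Gpx2, Gpx3, Gpx4, Txnrd1 and Txnrd2, of which Txnrd2 was called. Of 15 listed genes of selenoprotein synthesis 8 were measured, of which 3 fell and 1 rose. Over all genes 3.55% fell and 5.14% rose. Sephs2, which makes selenophosphate, was at 7.71, 8.18 and 7.96 in WT and at 7.36, 7.11, 7.18 and 7.14 in KO, a fall of 0.75 (adjusted p = 0.00969 by limma). Its groups did not overlap. Pstk, the kinase that acts on the selenocysteine transfer RNA, fell by 0.33 and Secisbp2, which reads the selenocysteine insertion element, by 0.23. Scly, which recovers selenium from selenocysteine, rose by 0.55 (adjusted p = 0.0152 by limma).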

How the data were processed

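Expression was measured in 7 adrenal samples (3 WT, 4 KO) on 1-colour arrays. The deposited table holds log2 values of 41345 probe sets, for which the submitters' processing notes name RMA (background correction, quantile normalization and probe summary by the authors). The sources used here do not give its version or the probe set build. A second deposited table gives the authors' log2 fold change, p-value and adjusted p-value per symbol, per the file headers, with the test behind them unstated.

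Names came from GEO's annotation of the platform. A single symbol was given for 23521, several for 1820, and 16004 are unnamed here. The probe set with the highest mean was kept per gene, giving 22180 genes with no filter on low values, and the symbols of all 51 members matched RefSeq (GRCm38.p6) by Entrez identifier. The comparison used limma 3.58.1 in R 4.3.3 (functions lmFit and eBayes, no covariates), and Benjamini-Hochberg adjustment covered all genes. Every adjusted p is from limma unless the authors' deposited table is named. With 7 arrays and 5 residual degrees of freedom, the number of arrays limits precision. The fit was tested on simulated data. Alternatives covered low-value filtering, several probe sets, normalization, variance prior, array weights, replicate blocks and leaving out each array.

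The members and the gene lists were chosen with earlier results of these data known. Values on every array are given for called members and for 12 members fixed by name, the other members being given by range, count and the 5 largest uncalled changes. The labels call the arrays biological replicates.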

Additional observations from a re-analysis of the deposited data

Results flagged for a closer look

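Among the 51 members, 7 had 1 KO array far from the other 3 relative to the range of the group. Chance marks about 1 group in 20 where values do not repeat. Gclc, Cbs, Gpx4 and Gsto2 each had the same value on 2 KO arrays and Gstt4 on 3. The count of 7 therefore cannot be set against that rate. None of the 7 genes was called by limma. KO replicate 1 was the highest for Gclc (8.31, next 8.13), Txnrd1 (8.54, next 8.35) and Gsto2 (5.06, next 4.84). KO replicate 3 was the lowest for Cbs (5.20, next 5.47) and Gpx4 (7.94, next 8.03). KO replicate 2 was the highest for Gstp2 (8.49, next 8.35), and KO replicate 4 was the lowest for Gstt4 (4.21), whose other 3 KO arrays shared 1 value, 4.26. The gaps were at most 0.27 log2 units. Groups of 3 arrays were not examined in this way.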

How the results depend on the processing

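Of the 11 called members, 5 (Cth, Gstm2, Mgst1, Sod2 and Srxn1) were called under each of the 17 alternatives, 1 of which, centring arrays on their medians over genes, was chosen after seeing the data. Each of the other 6 lost its call at least once. None of the 11 changed direction under any of the 17. Of the 40 uncalled members 5 (Gstp1, Txn2, Hmox1, Gpx7 and Gstt2) were called under 1 or 2 alternatives, Gpx7 without KO replicate 2 (log2 change 0.26, adjusted p = 0.0259 by limma) and Hmox1 with the description numbers as a replicate block (0.39, adjusted p = 0.0496 by limma). Member counts of 4 higher and 7 lower became 2 and 5 when all 41345 probe sets were tested, which adjusts over more tests, and 2 to 5 higher and 4 to 7 lower without 1 array. Over all genes, 594 to 945 were higher and 322 to 654 lower without 1 array, against 1140 and 788, with counts of higher genes more than 1.5 times smaller without WT replicate 2 or 3 and of lower genes without either of these or KO replicate 2 or 3. Centring on medians over genes gave 1329 lower.

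The labels number the arrays in their titles and again in their descriptions. Deviations of same-numbered arrays from their group means correlated at -0.11 to 0.07 for the title numbers and at -0.07 to 0.21 for the description numbers. The value of 0.21, for WT replicate 2 and KO replicate 3, was the highest of any WT and KO array. So few correlations cannot say whether either numbering pairs the arrays. With the title numbers as a replicate block, 523 genes were higher and 286 lower, and members counted 2 higher and 4 lower. Among the members, the block took the calls of Gsta3 (adjusted p = 0.0616), Txnrd2 (0.0926), Gstk1 (0.176), Gstm1 (0.0749) and Gstt1 (0.159), all by limma. With the description numbers, 610 genes were higher and 393 lower, members counted 3 and 6, and the calls of Gstm1 (adjusted p = 0.130), Gstt1 (0.0976) and Mgst2 (0.0687) were lost by limma. The block spends degrees of freedom and leaves KO replicates without a partner, and any other cause was not tested.

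Of the members, 16 that were not called changed sign at least once, each close to 0. With arrays centred on their medians over all probe sets, the change was 0.0054 for Gclm, 0.011 for Nfe2l2 and 0.0062 for Nnt. After a further quantile normalization, the change was 0.014 for Gclm, 0.035 for Nfe2l2, 0.031 for Nnt, 0.0031 for Prdx2 and 0.016 for Sod3. With array weights, the change was -0.0096 for Gpx1, -0.017 for Gpx6, -0.0093 for Gstm7, -0.050 for Gsto2 and 0.021 for Nnt. With the title numbers as a block, the change was 0.048 for Gclm and 0.027 for Sod3. With the description numbers as a block, the change was -0.051 for Gpx1, -0.096 for Gstm7, -0.059 for Gsto2, 0.010 for Nnt and -0.0057 for Prdx4. With arrays centred on their medians over genes, the change was -0.026 for Gpx1, -0.034 for Gpx6, -0.032 for Gstm7, -0.051 for Gsto2, -0.021 for Gstp3 and -0.050 for Prdx4. Without 1 array, it ranged from -0.097 to 0.016 for Cbs, from -0.077 to 0.048 for Gclm, from -0.056 to 0.11 for Gpx1, from -0.16 to 0.048 for Gpx2, from -0.051 to 0.0048 for Gpx4, from -0.070 to 0.10 for Gpx6, from -0.096 to 0.12 for Gstm7 and from -0.078 to 0.10 for Gsto2. It ranged from -0.026 to 0.12 for Gstp3, from -0.10 to 0.17 for Gstt4, from -0.040 to 0.045 for Nfe2l2, from -0.092 to 0.059 for Nnt, from -0.10 to 0.024 for Prdx2, from -0.12 to 0.010 for Prdx3, from -0.020 to 0.026 for Prdx4 and from -0.078 to 0.027 for Sod3. The cause was not tested. No detection calls were used, so weak signals could not be set against background.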
